A study of Mus musculus with 4 samples.

Results

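The genes described here are 7 transcription factors that specify or mark the myeloid lineage, *Spi1*, *Cebpa*, *Cebpb*, *Maf*, *Klf2*, *Klf4* and *Runx1*, and the receptor genes *Csf1r* and *Csf2ra*. They were taken by name, and the symbol of a probe came from the RefSeq entry of its transcript accession. All 9 of the 9 genes were found, out of 20140 genes that could be named on the array, and they were read by 12 probes. RNA was measured in J774 cells (J774.1), a mouse line of the monocyte-macrophage type, which is a tumor-derived line and not a primary macrophage. The cells had received MG132, epoxomicin, or ONX0914, each at 1 μM, or DMSO, the solvent of the inhibitors, for 4 hours, and each condition was read on 1 single-color array. MG132 and epoxomicin act on the proteasome, whereas ONX0914 is directed at β5 and at β5i, its counterpart in the immunoproteasome. For the ONX0914 array the labels disagree, since its treatment field reads ONX-0912 and its protocol, like the paper, gives ONX0914, the name used here. The comparison addressed how gene expression in these cells shifted when proteasomes were inhibited.

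Transcription factors of the myeloid lineage act in a layered way. RUNX1 and PU.1, the product of *Spi1*, act early in blood cell formation, and PU.1 binds control elements of many macrophage genes, that of the CSF1 receptor among them. C/EBPα drives the step from progenitor to granulocyte-monocyte precursor, and C/EBPβ is used in mature and activated macrophages. c-MAF and KLF factors shape the differentiated macrophage, which depends on CSF1 signaling through CSF1R for its survival. The receptor for GM-CSF pairs the α chain encoded by *Csf2ra* with a β chain shared with the IL-3 receptor.

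Among the lineage factors, *Maf* was the gene that differed most from DMSO in the downward direction with each inhibitor, by −1.95 under MG132, −1.79 under epoxomicin and −1.28 under ONX0914 on the log2 scale. *Cebpa* rose under MG132 and epoxomicin, from a signal near background, *Cebpb* rose under MG132, and *Klf4* and *Runx1* rose under epoxomicin. The other *Runx1* probe passed 2-fold under MG132 as well. *Klf2* fell under MG132. The receptor genes *Csf1r* and *Csf2ra* lay within 0.16 of DMSO on the log2 scale with each inhibitor when the probe standing for the gene was used. A gene was said to rise or fall here when it differed at least 2-fold, which is 1 on the log2 scale. With 1 array per condition there was no replicate, so no difference has a test.

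Each array held 43020 spots that were not controls, and the scanner software called between 60.3% and 63.1% of them well above background. The signal given below is the brightness of a spot after the software subtracted the background, in arbitrary units, and it was not scaled between arrays. For differences, its log2 was taken and the 75th percentile of the array was subtracted, which stood at a signal of 1654 with DMSO, 1453 under MG132, 1683 under epoxomicin and 1612 under ONX0914. The error given with a difference is the one the scanner software assigned to each spot, about 10.0% of a bright signal, carried over to the difference. It describes the reading of 1 spot and leaves out the spread between cultures. Every probe of the 9 genes was printed once and was well above background on all arrays, so none of their differences is a bound. Probes differ in how brightly they read, so each probe was compared with itself over the arrays and not with another probe. Of 14 markers of monocytes and macrophages, 14 were well above background on every array, as were 3 of 7 markers of T cells, 2 of 4 of B cells, 4 of 6 of neutrophils, 3 of 5 of dendritic cells, 4 of 4 of erythroid cells and megakaryocytes and 2 of 5 of fibroblasts, while of 4 epithelial markers between 0 and 2 were. Of the other-lineage markers, *Cd3d*, *Cd3g* and *Cd8a* of T cells, *Ms4a1* and *Cd79a* of B cells, *Mpo* of neutrophil precursors, *Xcr1* and *Clec9a* of dendritic cells and *Col1a1* of fibroblasts were not well above background on any array, whereas *Cd3e*, *Cd4* and *Lck*, *Cd22* and *Cd79b*, *Elane*, and *Siglech* were so on all of them. Detection was read on the probe standing for the gene, which for *Siglech* gave 177624 with DMSO. Another *Siglech* probe gave 22.4 with DMSO and was well above background on that array only. In the erythroid and megakaryocyte list the DMSO signal was 216358 for *Pf4* and between 28.3 and 45.1 for the rest.

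The sequence upstream of the start site was looked up for the genes, so that genes above and below DMSO could be set side by side. RefSeq starts (GRCm38.p6) were used for 6 of the 9 genes, in 7 windows of 250 bases each. Windows of *Spi1*, *Maf* and *Csf1r* are not reported here. Shown are the windows of *Cebpb*, *Klf4*, *Runx1* and *Klf2*. On the probe standing for the gene, *Cebpb* passed 2-fold upward under MG132, at 1.04 on the log2 scale, and was 0.84 under epoxomicin. *Klf4* and *Runx1* passed it under epoxomicin, at 1.12 and 1.06, and were 0.94 and 0.96 under MG132. The other *Runx1* probe, at 1.48, passed it under MG132 too. *Klf2* passed it downward under MG132, at −1.05, and was −0.96 under epoxomicin. On the probe standing for the gene, none of these genes differed between MG132 and epoxomicin beyond the software error. Each window runs 5′ to 3′ on the strand of the gene and ends at the base before the start. Capitals mark the motif matches on either strand.
Cebpb, chr2:167688665-167688914, plus strand: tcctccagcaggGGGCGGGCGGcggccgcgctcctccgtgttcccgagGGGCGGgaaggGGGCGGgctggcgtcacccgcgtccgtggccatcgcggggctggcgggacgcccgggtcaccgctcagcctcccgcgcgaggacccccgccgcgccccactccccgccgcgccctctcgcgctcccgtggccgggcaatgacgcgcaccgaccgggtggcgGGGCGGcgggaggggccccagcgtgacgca
Klf4, chr4:55532476-55532725, minus strand: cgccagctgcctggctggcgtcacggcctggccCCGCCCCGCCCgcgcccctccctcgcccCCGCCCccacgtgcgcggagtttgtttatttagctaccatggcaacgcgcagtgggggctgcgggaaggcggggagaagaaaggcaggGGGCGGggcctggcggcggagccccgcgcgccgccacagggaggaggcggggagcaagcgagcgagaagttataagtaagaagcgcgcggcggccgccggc
Runx1, first start, chr16:92826075-92826324, minus strand: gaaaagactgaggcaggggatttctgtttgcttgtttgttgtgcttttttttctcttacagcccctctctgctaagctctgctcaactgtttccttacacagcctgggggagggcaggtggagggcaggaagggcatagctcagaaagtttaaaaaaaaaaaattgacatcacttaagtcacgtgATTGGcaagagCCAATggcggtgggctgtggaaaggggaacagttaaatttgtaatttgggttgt
Runx1, second start, chr16:92697330-92697579, minus strand: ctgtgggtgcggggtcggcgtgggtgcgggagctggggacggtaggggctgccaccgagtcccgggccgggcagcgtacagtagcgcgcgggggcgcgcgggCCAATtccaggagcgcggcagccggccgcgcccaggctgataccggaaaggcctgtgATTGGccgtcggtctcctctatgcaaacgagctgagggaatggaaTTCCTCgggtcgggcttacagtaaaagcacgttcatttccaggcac
Klf2, chr8:72318812-72319061, plus strand: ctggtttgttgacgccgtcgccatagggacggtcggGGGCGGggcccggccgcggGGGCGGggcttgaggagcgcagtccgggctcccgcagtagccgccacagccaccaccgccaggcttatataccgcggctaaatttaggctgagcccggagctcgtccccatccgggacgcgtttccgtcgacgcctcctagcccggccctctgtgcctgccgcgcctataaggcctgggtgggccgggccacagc

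The windows of *Cebpb*, *Klf4* and *Klf2* were rich in G and C, at 81.6%, 74% and 71.2%, against a median of 52.4% over 32851 promoter windows of the same length. The GC box, with the letters GGGCGG, was present 5 times upstream of *Cebpb*, where a pair of the matches overlap, 4 times upstream of *Klf4*, again with an overlapping pair, and 2 times upstream of *Klf2*. It was present in 32.7% of all windows. GC boxes were thus found upstream of *Cebpb* and *Klf4*, which lay above DMSO with each inhibitor and passed 2-fold with 1. They were also found upstream of *Klf2*, which fell under MG132 and was −0.96 under epoxomicin. The windows of *Runx1* held no GC box but 2 matches each to the CCAAT box, with the letters CCAAT, which 33.8% of all windows hold. The second *Runx1* window also held the core letters bound by PU.1, GAGGAA, found in 23.3% of all windows. *Cebpa* had a match to the TATA box, with the letters TATAAA, from 30 to 25 bases before its start, and 12.4% of all windows hold one. *Csf2ra* had 2 matches to the PU.1 core, 1 GC box and 1 cyclic AMP response element, with the letters TGACGTCA, which 1.55% of all windows hold. An AP-1 site (TGANTCA, in 6.75% of windows), a C/EBP site (TTGCNNAA, in 9.56%) and a heat shock element (GAANNTTC, in 6.69%) matched none of the 7 windows. A match is a run of letters and not evidence of binding.

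*Csf1r* encodes the receptor tyrosine kinase for CSF1 and IL-34 and was read by 3 probes, all designed to the transcript NM_001037859. The brightest one, which stands for the gene, gave a signal of 210824 with DMSO, 165950 under MG132, 193542 under epoxomicin and 201426 under ONX0914. Its difference from DMSO was −0.16 under MG132, −0.15 under epoxomicin and −0.03 under ONX0914 on the log2 scale, each with an error of 0.20. These differences were smaller than the software error. The next probe gave signals of 13962 with DMSO, 11154 under MG132, 11806 under epoxomicin and 16007.5 under ONX0914. Its differences from DMSO were −0.14, −0.27 and 0.23. The dimmest probe gave 3771 with DMSO, 3432 under MG132, 3012 under epoxomicin and 4639 under ONX0914, and differed by 0.05, −0.35 and 0.34. The probes thus differed in sign for MG132 and for ONX0914, and no probe of *Csf1r* reached a 2-fold difference from DMSO. *Csf2ra* encodes the GM-CSF-binding chain of its receptor and was read by 1 probe to NM_009970, with a signal of 5282 with DMSO, 4381 under MG132, 4957 under epoxomicin and 5259 under ONX0914. The differences of *Csf2ra* from DMSO were −0.08, −0.12 and 0.03 (error 0.20), all smaller than the software error. On the probe standing for the gene, neither receptor gene differed from DMSO beyond that error on any array. The other probes of *Csf1r*, each with an error of 0.20, lay beyond it, below DMSO under epoxomicin and above DMSO under ONX0914.

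*Spi1* encodes PU.1, an ETS factor, and its probe to NM_011355 gave 1081 with DMSO, 664 under MG132, 558 under epoxomicin and 1112 under ONX0914. The DMSO and ONX0914 arrays were close together, and the MG132 and epoxomicin arrays lay below both. On the log2 scale *Spi1* differed from DMSO by −0.52 under MG132, −0.98 under epoxomicin and 0.08 under ONX0914 (error 0.20). It did not reach a 2-fold difference from DMSO with any inhibitor. The value under epoxomicin was just short of that threshold, and ranked 564th from the lowest of 13039 genes measured on both arrays.

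*Runx1* encodes the DNA-binding subunit of a core-binding factor and was read by 2 probes to different transcripts. The probe to NM_001111022, which stands for the gene, gave 7752 with DMSO, 13216 under MG132, 16479 under epoxomicin and 10686 under ONX0914. All inhibitor arrays lay above DMSO, with the epoxomicin array highest and ONX0914 nearest to DMSO. Its differences were 0.96, 1.06 and 0.50 (error 0.20), so that the 2-fold threshold was passed under epoxomicin and narrowly missed under MG132. With a shift of each array to its median instead, the epoxomicin value was 0.99. The probe to NM_009821 gave 791 with DMSO, 1941 under MG132, 2802 under epoxomicin and 1036 under ONX0914. On this probe *Runx1* was 1.48 higher under MG132, 1.80 higher under epoxomicin and 0.42 higher under ONX0914 on the log2 scale. The order of the arrays was the same on both probes, while the distance of MG132 and epoxomicin from DMSO was larger on the second. Which transcripts account for this was not tested.

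**Figure D1:**
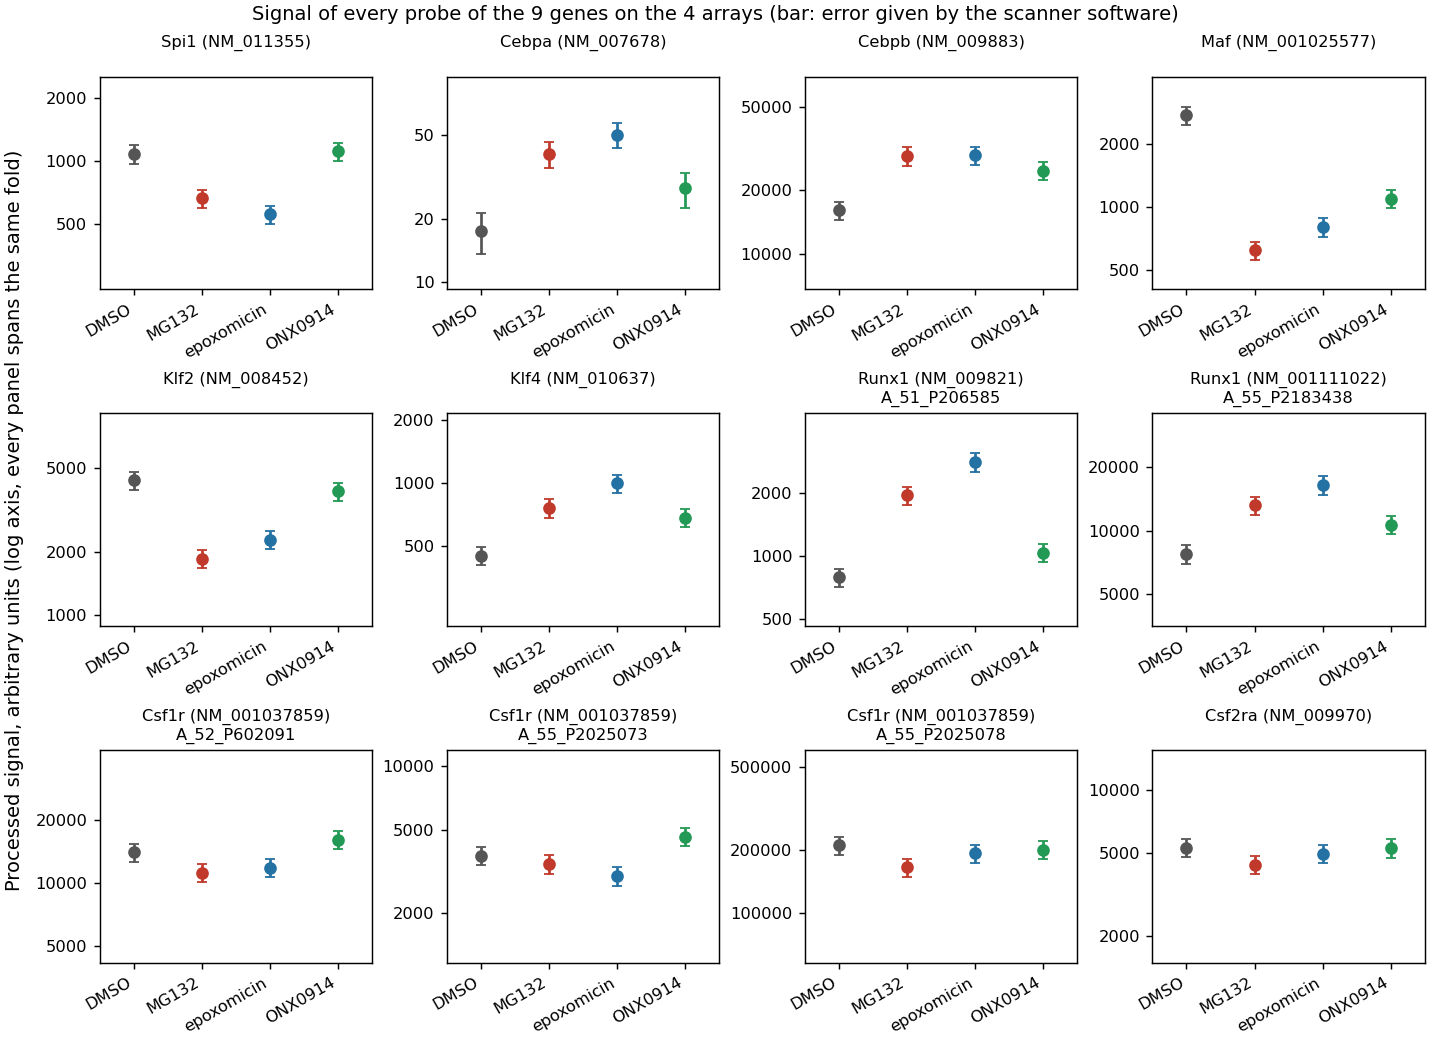
Processed signal in arbitrary units (log axis) of the 12 probes on the DMSO, MG132, epoxomicin and ONX0914 arrays, 1 panel per probe with the transcript accession above it. Points are single arrays and bars the error given by the scanner software, and every panel spans the same fold, so that the steep fall of *Maf*, from 2724 with DMSO to 621 under MG132, can be set against the panel of *Csf2ra*, from 5282 to 4381.

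*Cebpa* encodes C/EBPα, and its probe to NM_007678 gave 17.5 with DMSO, 40.8 under MG132, 50.4 under epoxomicin and 27.9 under ONX0914. The signal was dim on all arrays, and with DMSO it was close to 14.7, the lowest signal that the software called well above background there. *Cebpa* rose by 1.41 under MG132 (error 0.38) and by 1.504 under epoxomicin (error 0.37) on the log2 scale, and the difference under ONX0914 was 0.71 (error 0.42). Its direction depended on the background correction. When the background was instead removed by normexp, a joint model of spot and background brightness, fitted on all spots, *Cebpa* was −0.93 under MG132, −1.11 under epoxomicin and −1.05 under ONX0914. Fitted without outlier spots, the same model gave *Cebpa* differences of 0.75, 0.58 and 0.65, none of them 2-fold.

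*Cebpb* encodes C/EBPβ, which takes part in the macrophage response to inflammatory signals. Its probe to NM_009883 gave 16072 with DMSO, 29091 under MG132, 29343 under epoxomicin and 24862 under ONX0914. All inhibitor arrays lay above DMSO. The difference of *Cebpb* from DMSO was 1.04 under MG132, 0.84 under epoxomicin and 0.67 under ONX0914 (error 0.20), and it rose past 2-fold under MG132. The value under MG132 was close to the threshold and became 0.86 without scaling between arrays.

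*Maf* encodes c-MAF, a large MAF factor of macrophages and lymphocytes, and its probe to NM_001025577 gave 2724 with DMSO, 621 under MG132, 801 under epoxomicin and 1096 under ONX0914. Every inhibitor array lay below DMSO by more than 2-fold. *Maf* fell by 1.95 under MG132, by 1.79 under epoxomicin and by 1.28 under ONX0914 on the log2 scale (error 0.20), or 3.85-fold, 3.46-fold and 2.42-fold. Counted from the lowest difference of all genes measured on both arrays, *Maf* was the 35th of 13004 under MG132, the 62nd of 13039 under epoxomicin and the 53rd of 12993 under ONX0914. *Maf* fell past 2-fold with each inhibitor under all 11 other ways of computing the differences. Its values ranged from −2.13 to −1.69 under MG132, from −1.86 to −1.60 under epoxomicin and from −1.33 to −1.18 under ONX0914. Alternatives that change only the probe rule or the bounds could not move it, as its only probe was well above background throughout.

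*Klf2* and *Klf4* encode Krüppel-like zinc finger factors of monocytes and macrophages, and they lay on opposite sides of DMSO. The *Klf2* probe to NM_008452 gave 4386 with DMSO, 1859 under MG132, 2289 under epoxomicin and 3892 under ONX0914. The MG132 and epoxomicin arrays were below the others, and ONX0914 was near DMSO. *Klf2* fell by 1.05 under MG132, and it was −0.96 under epoxomicin and −0.14 under ONX0914 (error 0.20). The *Klf4* probe to NM_010637 gave 450.1 with DMSO, 760.2 under MG132, 994 under epoxomicin and 683 under ONX0914. *Klf4* rose by 1.12 under epoxomicin, and it was 0.94 under MG132 and 0.64 under ONX0914 (error 0.20). All inhibitor arrays were above DMSO for *Klf4*, and the epoxomicin array was the highest. With normexp fitted on all spots, *Klf4* was 0.60 under epoxomicin and *Klf2* was −0.91 under MG132, both short of 2-fold.

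**Figure D2:**
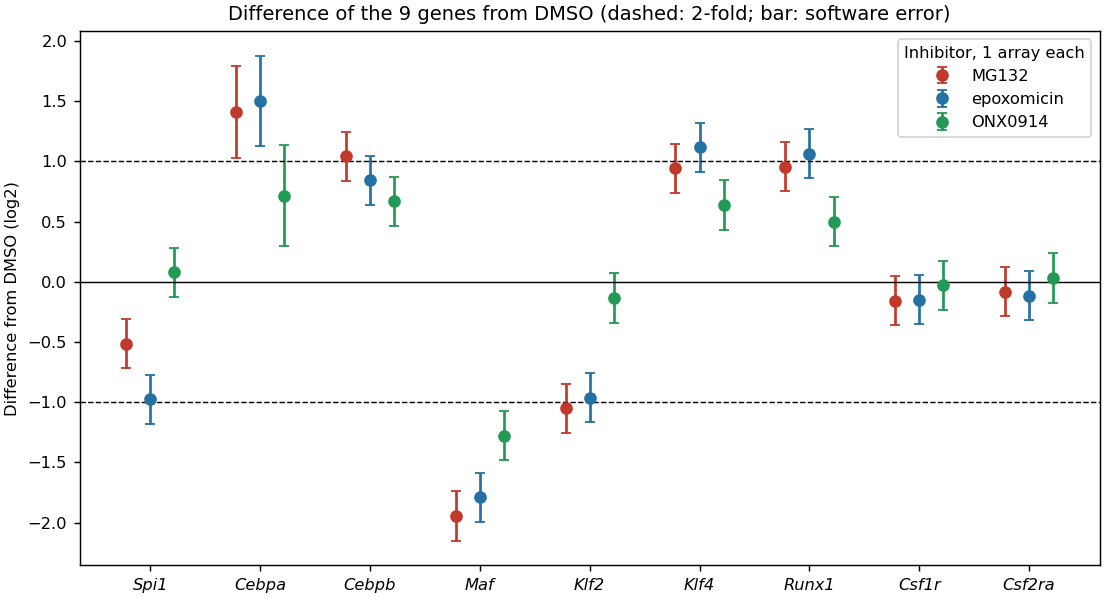
Difference from DMSO (log2) of the 9 genes under MG132, epoxomicin and ONX0914, 1 array each, after subtraction of the 75th percentile of the array. Bars are the error of the scanner software and dashed lines mark a 2-fold difference, which *Maf* passed downward with each inhibitor, by −1.95, −1.79 and −1.28.

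With MG132, 2 of the 9 genes were at least 2-fold higher, *Cebpa* and *Cebpb*, and 7.13% of all genes compared were higher by this threshold. In the same comparison 2 were at least 2-fold lower, *Maf* and *Klf2*, and 3.6% of all genes were. With epoxomicin, 3 were higher, *Cebpa*, *Klf4* and *Runx1*, beside 8.31% of all genes, and 1 was lower, *Maf*, beside 4.44%. With ONX0914, 0 were higher, beside 3.23% of all genes, and 1 was lower, *Maf*, beside 1.39%. These shares of all genes rest on 13989, 14046 and 13979 genes that either array of the pair read well above background. The median difference of the 9 genes was −0.08 under MG132, −0.12 under epoxomicin and 0.08 under ONX0914. Over all genes measured on both arrays the median was −0.02, −0.04 and −0.0027. Beyond the software error, on the probe standing for the gene, 4 genes were above DMSO and 3 below it under MG132, and the same numbers held under epoxomicin. With ONX0914 4 were above and 1 was below. The share of all genes beyond their software error was not computed, so these counts have no background to be read against. All of these comparisons use the same DMSO array.

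**Figure D3:**
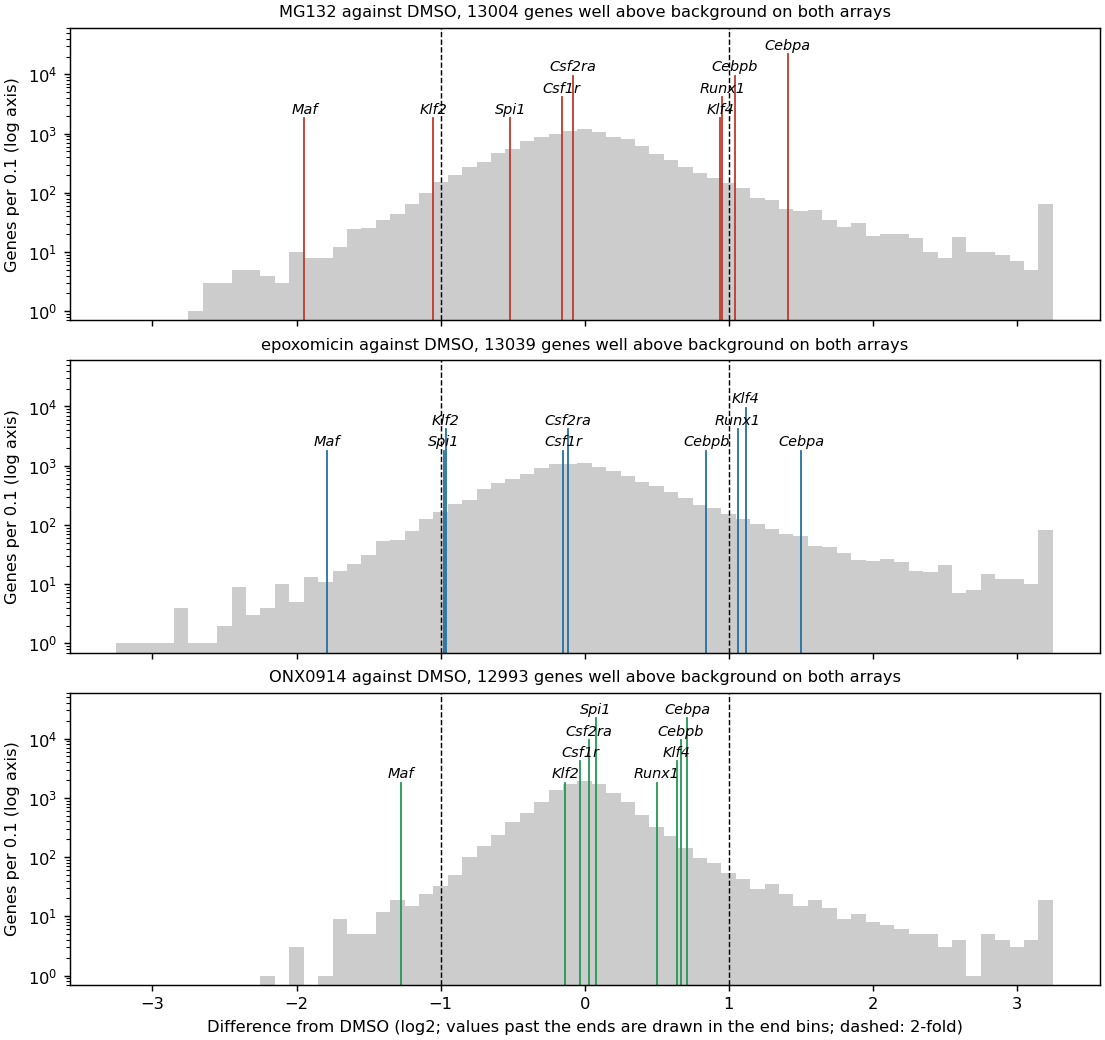
Histograms of the difference from DMSO (log2) over all genes well above background on both arrays, under MG132 (13004 genes), epoxomicin (13039) and ONX0914 (12993), and the number of genes per 0.1 on a log axis. Vertical lines mark the 9 genes and dashed lines a 2-fold difference, and *Maf* lies in the far left tail in each panel while *Csf1r* and *Csf2ra* lie near the center.

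The inhibitors were also compared with each other at the same dose and time, in 3 pairs and with no test. Between epoxomicin and MG132, 0 of the 9 genes were 2-fold apart, and 1.5% of all genes were. *Spi1* was −0.46 under epoxomicin relative to MG132, the only one of the 9 genes beyond the software error on the probe standing for the gene. That value was −0.25 without scaling between arrays. The dimmest *Csf1r* probe was −0.40 and the second *Runx1* probe 0.32, both beyond their error of 0.20, while the remaining *Csf1r* probe was −0.13. Between ONX0914 and MG132, 0 of the 9 genes were 2-fold apart, beside 4.12% of all genes. Beyond the software error lay 7 of the 9 on the probe standing for the gene, and no share of all genes was computed for that cut. *Klf2* was 0.92 higher under ONX0914 than under MG132, *Maf* 0.67 higher and *Spi1* 0.59 higher, whereas *Cebpa* was −0.70, *Runx1* −0.46, *Cebpb* −0.38 and *Klf4* −0.30. Between ONX0914 and epoxomicin, 1 of the 9 genes was 2-fold apart, beside 5.94% of all genes. This was *Spi1*, at 1.06 (error 0.20), which ranked 103rd from the highest of 12860 genes measured on both arrays. *Spi1* fell short of 2-fold there in 3 of 11 alternatives, with 0.93 as the lowest value. Alternatives on the probe rule and bounds could not move it, as its only probe was well above background throughout. In this pair *Klf2* was 0.83, *Maf* 0.51, *Cebpa* −0.79, *Runx1* −0.56 and *Klf4* −0.48. For each of these genes the ONX0914 array lay between DMSO and the epoxomicin array, except for *Spi1*, where it lay 0.08 above DMSO. The second *Runx1* probe was 2-fold apart in both pairs, at −1.06 against MG132 and −1.37 against epoxomicin.

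The other genes of the receptor system came from lists of the partners, ligands and signaling genes. Of 4 partner chains, 0 were 2-fold higher or lower with any inhibitor. *Csf2rb*, the β chain that pairs with the product of *Csf2ra*, was 0.51 under MG132, 0.67 under epoxomicin and 0.26 under ONX0914, and its close copy *Csf2rb2* was 0.66, 0.91 and 0.45. Near-identical copies can hybridize to the same probe, so the values of both are uncertain. Of 8 adaptors and enzymes of CSF1R signaling, some of which limit the signal, 0 passed 2-fold in either direction with any inhibitor. The median of these genes was −0.42 under MG132, −0.50 under epoxomicin and −0.14 under ONX0914. *Tyrobp*, an adaptor of CSF1R and of immune receptors, was −0.74, −0.79 and −0.22. *Kit*, *Flt3* and *Pdgfrb*, which encode receptor kinases of the same class as CSF1R, were not well above background on any array. *Pdgfra*, of that class too, was well above background with DMSO only, at a dim signal of 39.0. It was at least 0.93 lower under MG132, at least 0.71 lower under epoxomicin and at least 0.70 lower under ONX0914.

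Of 4 ligands compared, 1 rose and 2 fell under MG132, 1 rose and 1 fell under epoxomicin, and 1 rose and 2 fell under ONX0914. These counts can be read beside the shares of all genes given above. *Csf1*, which encodes the main ligand of CSF1R, was the one that rose. Its signal was 2056 with DMSO, 11632 under MG132, 15772 under epoxomicin and 6391 under ONX0914. *Csf1* rose by 2.69 under MG132, by 2.92 under epoxomicin and by 1.67 under ONX0914 on the log2 scale. The other probes of *Csf1* gave 1.84 and 1.83 under MG132, 2.302 and 2.34 under epoxomicin, and 0.72 and 0.55 under ONX0914, so the call under ONX0914 rests on 1 of 3 probes. *Csf2*, which encodes GM-CSF, the ligand of the receptor chain *Csf2ra*, went the other way. Its signal was 107.2 with DMSO, 29.3 under MG132, 40.1 under epoxomicin and 46.4 under ONX0914, and it fell by 1.70, by 1.45 and by 1.18. These signals are dim, and *Csf2* was −0.60, −0.57 and −0.48 when normexp was fitted without outlier spots, a fit that ends the calls. *Il34* was 0.34, 0.17 and 0.10. *Il3*, which encodes a growth factor of blood progenitors, was not well above background under MG132 and ONX0914, where it was at least 1.27 and at least 1.30 lower than with DMSO, and it was 0.24 under epoxomicin. With normexp fitted without outlier spots these differences of *Il3* were −0.13 and −0.65, and with normexp on all spots its epoxomicin value was −1.31. *Csf3* was not well above background on any.

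Most relatives of the 9 genes were taken as families, and their counts can be read beside the shares of all genes given above. Of 4 further C/EBP genes, 3 rose under MG132 and 3 under epoxomicin, and 1 rose under ONX0914, while 0 fell. *Ddit3*, which encodes the stress-induced C/EBP factor CHOP, rose by 3.16 under MG132, 2.76 under epoxomicin and 3.16 under ONX0914. *Cebpd* rose by 1.02 and 1.68 under MG132 and epoxomicin and was 0.08 under ONX0914, and without scaling its value under MG132 was 0.83. *Cebpg* rose by 1.22 and 1.28 and was 0.71 under ONX0914. *Cebpe*, used in granulocytes, was −0.42, −0.70 and −0.15.

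Small MAF genes lay on the other side of DMSO from *Maf* itself. Among them *Mafg* stayed short of 2-fold, at 0.53 under MG132, 0.34 under epoxomicin and 0.43 under ONX0914. Of 4 further MAF genes compared, 2 rose under MG132 and 2 under epoxomicin, 1 rose under ONX0914, and 0 fell. *Maff*, a small MAF protein without an activation domain, rose by 1.45 under MG132, 2.05 under epoxomicin and 1.08 under ONX0914, and *Mafk*, of the same kind, rose by 1.37 and 1.49 and was 0.997 under ONX0914. Both kept their sign in all 11 alternatives, but *Maff* under ONX0914 dropped to 0.74 with normexp fitted on all spots and was then short of 2-fold. Here too the alternatives on probe rule and bounds could not move the values of *Maff* and *Mafk*, with 1 probe per gene.

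Of the further KLF genes, 1 rose and 1 fell among 12 compared under MG132, 1 rose and 1 fell among 11 under epoxomicin, and 2 rose and 0 fell among 12 under ONX0914. *Klf6*, an early response gene in many cell types, rose by 2.04 under MG132, 2.28 under epoxomicin and 1.07 under ONX0914. *Klf10*, induced by TGF-β in other cells, fell by 1.92 and 1.72 and was −0.99 under ONX0914. *Klf5*, a factor best known from epithelia, was at least 1.26 higher under ONX0914, from a DMSO signal of 15.3 that was not well above background, and was 0.37 with normexp fitted without outlier spots. Among the ETS genes, relatives of *Spi1*, 3 rose and 0 fell of 16 compared under MG132, 2 rose and 1 fell of 16 under epoxomicin, and 0 rose or fell of 15 under ONX0914. *Etv6*, a repressor needed in blood stem cells, rose by 1.66 under MG132 and 1.70 under epoxomicin and was 0.70 under ONX0914, and *Etv3* rose by 1.34 and 1.37 and was 0.82. *Spic*, a close relative of *Spi1*, was at least 1.33 higher under MG132, from a DMSO signal that was not well above background. That value dropped to 0.13 when normexp was fitted without outlier spots. *Elk3* fell by 1.103 under epoxomicin and was −0.73 there on the dimmest of its 3 probes. *Cbfb*, which encodes the partner of RUNX1, was −0.15, −0.18 and −0.02, and *Runx3* was −0.15, −0.09 and −0.25. *Runx2* was not well above background on any array.

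**Figure D4:**
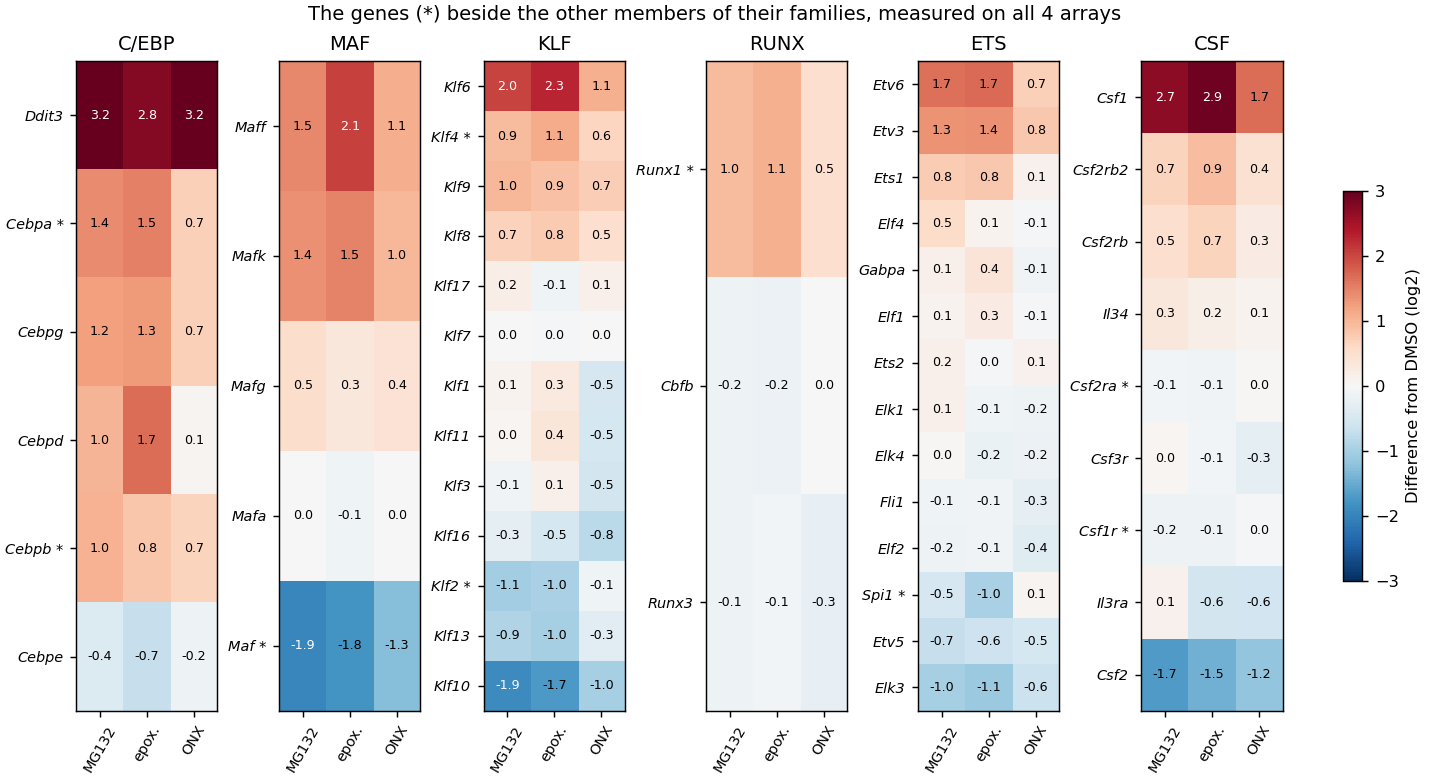
Difference from DMSO (log2, color scale from −3 to 3 and printed in each cell) of the 9 genes, marked by an asterisk, beside the other genes of their families that were well above background on all arrays. Columns are MG132, epoxomicin (epox.) and ONX0914 (ONX), 1 array each. *Maf* stands at the bottom of the MAF panel, where *Maff* and *Mafk* are above 1 under MG132 and epoxomicin.

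Markers of the cell type moved beside these genes. The summed signal of the 14 monocyte and macrophage markers was 329214 with DMSO, 219696 under MG132, 249875 under epoxomicin and 300111 under ONX0914. This sum was not scaled between arrays and weighs the brightest probes most, such as that of *Cd14*, at 109365 with DMSO. The median difference of these markers on the scaled values was −0.35, −0.28 and −0.04. With MG132 1 marker rose, *Mertk*, and 1 fell, *Cd33*, and under epoxomicin 3 fell, *Lyz2*, *Laptm5* and *Cd33*. With normexp fitted on all spots, *Lyz2* was −0.97 and *Laptm5* −0.83 there, so that 1 of these calls was left. The rise of *Mertk* turned to −0.63 when normexp was fitted on all spots. Markers of other cell types passed 2-fold as well. *Lck* of T cells rose by 1.26 under MG132 and 1.43 under epoxomicin, and *S100a8* of neutrophils fell by 1.01 and 1.09. *Itgax*, a marker of dendritic cells, rose by 1.004 and 1.05, which turned to −0.35 and −0.36 with normexp fitted on all spots. The epithelial keratin genes were dim, with *Krt8* at least 1.55 and at least 3.02 higher under MG132 and epoxomicin, and *Krt18* at least 1.17 higher under epoxomicin. With ONX0914, 0 markers of these other cell types passed 2-fold. The marker counts can be read beside the shares of all genes given above. In RNA of a whole culture, fewer cells expressing a gene and less RNA per cell cannot be told apart, and the part of these markers in the values of the 9 genes was not tested.

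The genes whose 3 differences from DMSO lay nearest to those of a member were taken by the root mean square distance, out of 12719 genes. All of the distances rest on the same DMSO array, and 3 values are few. Nearest to *Maf* were *Ppargc1b* at 0.0454, *Cdkn2d* at 0.0522 and *Sesn1* at 0.0673 on the log2 scale. Nearest to *Klf2* was *Fig4* at 0.0253, nearest to *Runx1* was *Zranb1* at 0.0122, nearest to *Klf4* was *Rnf135* at 0.0343, nearest to *Cebpb* was *Trim14* at 0.0254 and nearest to *Cebpa* was *Nmd3* at 0.0305.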

How the data were processed

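Total RNA of J774 cells was hybridized to 4 single-color (Cy3) Agilent arrays on 1 slide, 1 per condition. Scanner files from Feature Extraction 10.7.1.1 were deposited and hold the background-subtracted intensity of each spot, its error and the software's 0 or 1 calls, and no scaling between arrays. A second deposited file, with log2 values processed by the authors, served as an alternative. The array design is human by the Methods and mouse by the headers of the files, and it was treated as mouse.

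The 9 genes and all lists were chosen with earlier results of these data known. Control and outlier spots were left out (159 to 194 outliers per array), the 75th percentile of the array was subtracted from log2 intensity, and spots of a probe were averaged. The median SD between spots of one probe was 0.0555 to 0.0613 (log2), which covers 1 RNA sample only. Of 39429 probes, 26575 (67.4%) received a symbol through their accession in the mouse RefSeq table, and genome positions in those files were ignored. The probe of highest mean stood for a gene. A gene was compared when either array of a pair read it well above background, and a signal that was not took the higher of its own value and the lowest signal well above background (14.7 to 20.3), giving "at least" values. A 2-fold difference counted as higher or lower. With 1 array per condition there was no test, and the number of arrays limits the precision.

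Named were the 9 genes with every probe, list genes past 2-fold with at least 1 inhibitor (up to 5 per list) and, for likeness, the 3 nearest genes. Genes named short of 2-fold, such as *Csf2rb*, *Tyrobp*, *Cebpe*, *Cbfb* and *Runx3*, were added after their values were seen. *Cd68*, *Ly6g* and *Hbb-b1* were not analysed here, and 2 further list genes are not reported here and were left out of the counts. Alternatives were other scalings, normexp background correction (offset 50), the authors' table, other probe rules, filters and thresholds. Scripts were tested on simulated data. Calculations used Python 3.11.15, numpy 2.4.6, pandas 2.3.3, matplotlib 3.10.9, R 4.3.3 and limma 3.58.1.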

Additional observations from a re-analysis of the deposited data

How the results depend on the processing

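Of 297 differences of the 9 genes from DMSO under 11 alternatives, 12 had the other sign. These were 3 for *Cebpa*, 4 for *Csf1r* and 5 for *Csf2ra*. For the genes read by 1 probe, the alternatives on probe rule and bounds could only return the main value. The calls of *Cebpa* reversed with normexp fitted on all spots, at −0.93 with MG132 and −1.11 with epoxomicin, and its ONX0914 value, short of 2-fold, went to −1.05. Apart from those 2 reversed calls, 15 differences moved by at least their software error. With MG132, 2 genes were higher, and the count became 1 with a shift to the median, with no scaling, and with normexp fitted without outlier spots. It was 4 at 1.5-fold and 0 at 4-fold. The 2 genes lower with MG132 became 1 with normexp on all spots and 0 at 4-fold. The 3 genes higher with epoxomicin became 1 with normexp on all spots and 0 at 4-fold. Among these 3, *Runx1* also fell short with a shift to the median, at 0.99, and *Cebpa* with normexp fitted without outlier spots. The 1 gene lower with epoxomicin became 3 with a shift to the median, with quantile normalization and at 1.5-fold, became 2 with the 75th percentile over detected probes, with normexp on all spots and with the authors' table, and became 0 at 4-fold. With ONX0914, 3 were higher at 1.5-fold in place of 0, and the 1 lower gene became 2 with normexp on all spots and 0 at 4-fold. The median difference with ONX0914 was 0.34 when the probe of lowest mean stood for a gene. Between ONX0914 and MG132 the count of 0 became 1 with a shift to the median, with no scaling and with the probe of lowest mean, and 4 at 1.5-fold. Between ONX0914 and epoxomicin the count of 1 became 0 with no scaling, with either normexp fit and at 4-fold, 2 with the probe of lowest mean and 3 at 1.5-fold. The causes were not tested. Shares of all genes were taken at 2-fold only, so the counts at 1.5-fold and 4-fold stand without one. Changes of a count by 1.5 times or less are not all listed. Without scaling, every value shifted by −0.19 under MG132. Of 1728 counts over the other lists under 16 settings, 189 moved by more than 1.5 times. No paired analysis was possible because each condition had 1 array, and all arrays lay on 1 slide, so no slide block could be fitted. Low signal limits dim genes such as *Cebpa*, *Csf2*, *Il3* and *Spic*.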

Other observations

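Of 31 further regulators of blood cell formation, 24 were compared. With MG132, 3 were at least 2-fold higher, *Gata3*, *Id1* and *Trib1*, beside 7.13% of all genes. Under epoxomicin 3 were, *Gata3*, *Trib1* and *Nr4a1*, beside 8.31%. With either, 0 were lower, beside 3.6% of all genes for MG132 and 4.44% for epoxomicin. With ONX0914, 0 were higher, beside 3.23% of all genes, and 2 were lower, *Bcl6* and *Myb*, beside 1.39%. *Trib1*, which encodes a pseudokinase that promotes the degradation of C/EBPα, had a signal of 4738 with DMSO, 9659 under MG132, 13358 under epoxomicin and 8083 under ONX0914, and its differences from DMSO were 1.21, 1.47 and 0.81 on the log2 scale. *Id1*, an inhibitor of basic helix-loop-helix factors, was 1.15 under MG132, 0.83 under epoxomicin and 0.71 under ONX0914, and its MG132 value was 0.96 without scaling between arrays.

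*Nr4a1*, an orphan nuclear receptor needed by patrolling monocytes, had a signal of 425 with DMSO, 642 under MG132, 1411 under epoxomicin and 246 under ONX0914. Its differences from DMSO were 0.78, 1.71 and −0.75, and ONX0914 was −2.46 relative to epoxomicin. *Bcl6*, a repressor of inflammatory genes, was −0.69, −0.53 and −1.095. *Gata3*, which is best known from T cells, was 1.58, 1.63 and 0.48, and with normexp fitted on all spots it was 0.23, 0.13 and −0.55. *Myb*, a factor of progenitors, was at least 1.03 lower under ONX0914, from a dim DMSO signal of 40.4, and was −0.18 with normexp fitted without outlier spots.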
